A study of Homo sapiens with 36 samples.

Results

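The genes described here were 204 protein-coding genes of the long arm of chromosome 8, followed along the arm in a human ovarian cancer cell line, in a cisplatin-resistant line derived from it, and in a subline that regained serine synthesis. They were the protein-coding genes whose GRCh37 midpoint lay on chromosome 8 beyond 46 Mb and whose mean was at least 8 CPM (read counts scaled to a common library size) over the 6 untreated libraries of the parental and the resistant line. Of 404 protein-coding genes annotated on the arm, 217 reached that level, and 9 of these were left out by name and 4 as ribosomal protein genes. The 204 genes left were a small share of the 9512 protein-coding genes at the same level in a table of 57820 genes. Just inside the level stood CEBPD at 8.60 CPM and MAFA at 9.25 CPM, and just outside it BOP1 at 7.99 CPM and FBXO43 at 7.95 CPM. SPIDR and CEBPD were the first genes past the position limit, and HGSNAT and POMK the last before it. The set was proposed because the untreated resistant and parental libraries differed over this arm, so values of those libraries are given as a description without a test.

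A2780 is an established human ovarian cancer line, called wt here. A2780 cis is its isogenic counterpart raised by long exposure to cisplatin, and cis SSP denotes A2780 cis cells that grew out under serine and glycine deprivation with the serine synthesis pathway active again. Each line was grown in a homemade RPMI with dialyzed serum. The medium was complete or lacked serine and glycine (-SG), and the cells were left untreated or given carboplatin (carbo), a platinum drug that crosslinks DNA. All groups therefore shared the dialyzed serum, and the cis SSP groups shared with cis the earlier cisplatin exposure. The 12 conditions had 3 libraries each, described by the study as technical replicates of 1 line per state, so the spread between libraries measures technical error. The 36 mRNA libraries held 13074937 to 20441582 counts in genes each.

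Cancer cells often hold extra or missing copies of whole chromosome arms. When a long stretch of DNA is gained or lost, most genes on it tend to change their RNA level in the same direction by a similar amount, so that a running average of expression along the chromosome shows a shelf. A single gene can leave that shelf when its own promoter is silenced or switched on. RNA libraries measure the transcript level and hold no measurement of copy number, so whether copies changed was not tested.

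Some facts of the libraries bear on what follows. Libraries 25 (cis SSP, complete medium) and 32 (cis SSP -SG) stood apart from the others of their condition. The edgeR common dispersion of comparisons that contained one of them was 0.0324 to 0.0682, against 0.000421 to 0.00716 in the rest, so results for cis SSP in complete medium and in -SG are given with and without them. Library 11 (wt -SG carbo) also left its group in some members. It read 472 CPM of PRKDC against 954 and 948 CPM, and 92.5 CPM of CHD7 against 167 and 160 CPM. Without library 11 the median of the members with both treatments was 0.47 instead of 0.55 for cis against wt. For cis SSP against wt it was 0.02 instead of 0.04. The library numbers 23 and 24 (cis -SG carbo) had 17.9 and 14.9% of counts outside annotated features, where the other libraries had at most 9.31%. The defining Müllerian and epithelial markers PAX8, MUC16 and CDH1 stayed below 1 CPM in all libraries, and EPCAM at or below 2.31 CPM. WT1 was at or below 0.0540 CPM in wt, reached 1.38 CPM in cis and ran from 0.277 to 0.809 CPM in cis SSP. KRT18, a keratin of simple epithelia, ran from 0.345 to 7.7 CPM in wt, from 15.7 to 42.2 CPM in cis and from 7.3 to 16.7 CPM in cis SSP, and KRT8 and KRT19 reached 6.55 and 7.92 CPM in wt. The summed level of the epithelial and Müllerian list ran from 1.83 to 23.6 CPM in wt, from 16.5 to 46.2 CPM in cis and from 9.77 to 19.9 CPM in cis SSP. Of the markers of other cell types, PTPRC, CD68 and VWF stayed at or below 0.35 CPM. ACTA2 ran from 15.7 to 112 CPM in wt, from 2.84 to 7.11 CPM in cis and from 0.724 to 3.40 CPM in cis SSP. PDGFRB ran from 7.83 to 23.2 CPM, from 0.310 to 0.890 CPM and from 0.536 to 3.49 CPM. The summed level of this second list ran from 550 to 1877 CPM in wt, from 6.94 to 9.98 CPM in cis and from 12 to 23.5 CPM in cis SSP, and in wt most of it was COL1A1 and COL1A2. Both sums moved with the lines, and their part in the results was not tested. All 12 cis SSP libraries carried the same index sequences as wt libraries and none of the cis libraries did, and any difference between library pools and lines cannot be told apart.

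The whole arm was first compared between cis and wt cells. In every condition most long-arm genes lay higher in cis cells. In such bulk samples a change in the share of cells that express a gene and a change in its RNA per cell cannot be told apart. The median log2 fold change of the members was 0.56 in complete medium, 0.64 with carboplatin, 0.51 in -SG and 0.55 with both, whereas the median over all genes tested stayed between -0.02 and 0.01. With carboplatin, 159 of 204 members were called higher and 30 lower in cis, beside 40.3% of all genes called higher and 41.6% called lower (edgeR's quasi-likelihood test, Benjamini-Hochberg adjusted p under 0.05). In -SG medium 144 were called higher and 38 lower, with 40.8 and 40.3% of all genes, and with both treatments 132 were called higher and 39 lower, with 37 and 37.2%. A total of 108 members were called higher in all 3 of these conditions, where 20.3% of all genes were, and 17 were called lower in all 3, where 20.2% of all genes were. The share higher was thus well above the background, and the share lower was below it. These counts include members that reached the level of 8 CPM only through cis, among them KHDRBS3, COL14A1, ST3GAL1, LRATD2 and CA13. They also include members that reached it only through wt, among them TP53INP1, BAALC and ZFHX4. Among protein-coding genes at the same level on all chromosomes, 48.2, 41.2 and 37.2% were called higher in the 3 conditions.

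Next, cis SSP was set against the cis cells it came from. The same arm lay lower in cis SSP. The median log2 fold change was -0.63 in complete medium, -0.60 with carboplatin, -0.57 in -SG and -0.49 with both. With carboplatin, 175 of 201 testable members were called lower and 11 higher, beside 34.5% of all genes called lower and 34.7% called higher. In -SG, 104 of 202 were called lower and 4 higher, with 23.2 and 21.6% of all genes. Without library 32, 165 of 203 were called lower in -SG and 19 higher, with 38.5 and 37% of all genes, and the median was -0.58. With both treatments 151 of 203 were called lower and 20 higher, with 36.5 and 37.3% of all genes. A total of 93 members were called lower in all 3 conditions, where 12.8% of all genes were, and 2 were called higher in all 3, where 14.5% of all genes were. The 93 include members that reached the level of 8 CPM only through cis, among them KHDRBS3, COL14A1 and TMEM65. Among protein-coding genes at the same level, 40.2, 19.5 and 33.9% were called lower in the 3 conditions. These comparisons share the cis libraries with those of cis against wt, so a low or high level in the cis libraries enters both with opposite signs, and the direct comparison of cis SSP with wt is needed beside them.

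The comparison of cis SSP with wt does not use the cis libraries. Here the members had no common shift. The median log2 fold change was -0.06 in complete medium, 0.02 with carboplatin, -0.04 in -SG and 0.04 with both. With carboplatin 91 of 203 members were called higher and 86 lower, close to the 40.6 and 40.5% of all genes. In -SG 42 of 204 were called higher and 55 lower, with 22.2 and 23.9% of all genes. Without library 32 these counts were 74 and 89, with 36.4 and 36.6% of all genes. With both treatments 77 of 203 were called higher and 71 lower, with 36 and 35.2% of all genes. In all 3 conditions 35 members were called higher, where 16.7% of all genes were, and 37 lower, where 17.1% were. Many single genes therefore differed between cis SSP and wt, in both directions, without a shelf over the arm as a whole.

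The libraries showed the same by themselves. For each library the median over the members of log2(CPM over the mean CPM of the wt libraries in the same medium and drug) was taken. It ran from -0.02 to 0.01 in the 12 wt libraries, from 0.44 to 0.64 in the 12 cis libraries and from -0.07 to 0.04 in the 12 cis SSP libraries. No cis library overlapped with any library of the other lines, and the ranges of wt and cis SSP overlapped. The wt libraries lie near 0 because the mean of their own group was the reference, so their range does not measure their spread. The cis libraries include the untreated ones on which the set was proposed. The same median over all protein-coding genes at the level ran from -0.07 to 0.10 in cis and from 0.02 to 0.07 in cis SSP.

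The shift was also set against the other chromosomes. Among 25 chromosomes and chromosome arms, the mitochondrial genome included, the long arm of chromosome 8 (217 genes at the level, named exclusions included) had the highest median of cis against wt in all 4 conditions. Its medians were 0.57, 0.65, 0.52 and 0.55 in complete medium, with carboplatin, in -SG and with both. It also had the lowest median of cis SSP against cis in all 4, at -0.63, -0.60, -0.56 and -0.48. The arm was proposed from the untreated cis and wt libraries, so its ranks in complete medium are a description only. The short arm of the same chromosome, with 118 genes, stayed near 0, at 0.03, 0.10, 0.02 and 0.02 for cis against wt and at -0.07, 0.02, -0.08 and -0.00 for cis SSP against cis. Chromosome 13, with 161 genes, moved the other way in cis, with a median of -0.75 with carboplatin. There cis SSP kept the low level, with a median of -0.83 against wt in the same condition.

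**Figure D1:**
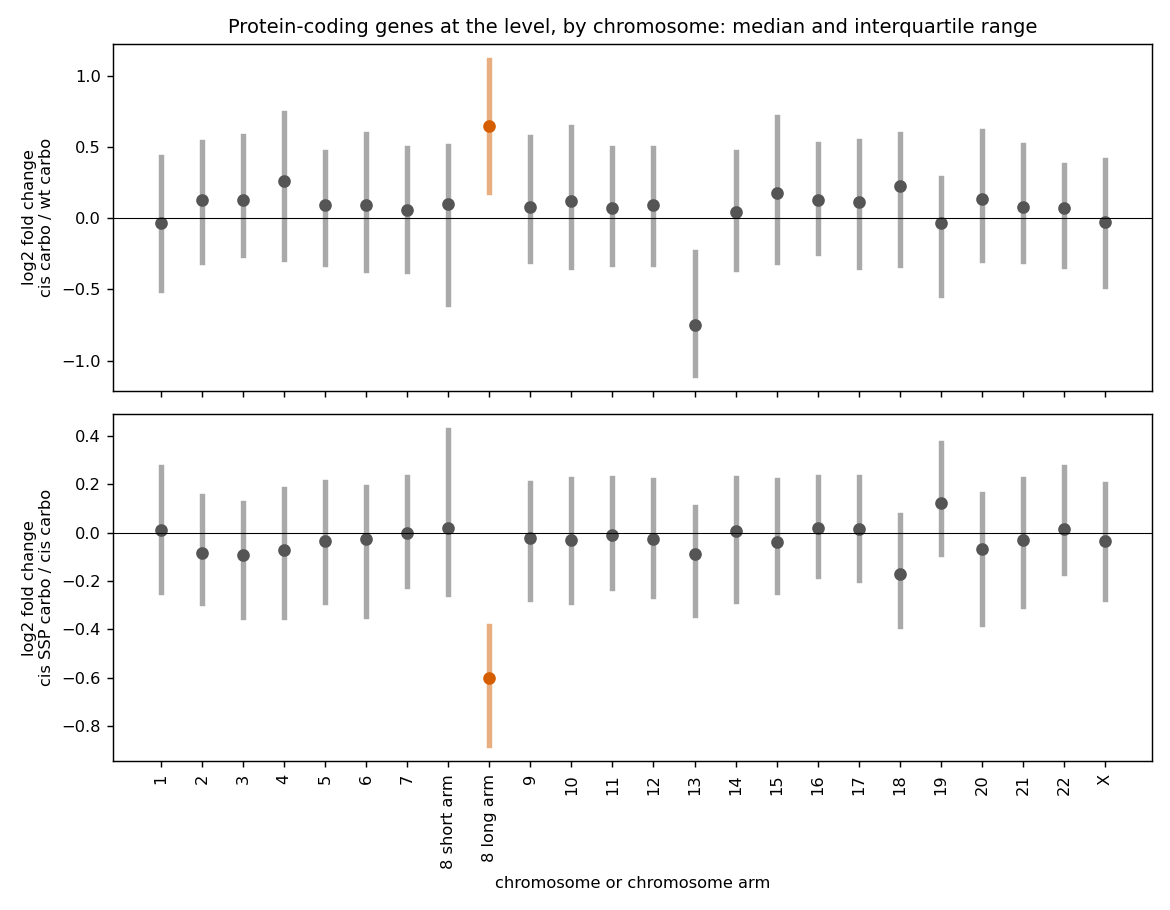
Log2 fold change of protein-coding genes at the level by chromosome or chromosome arm, for cis carbo against wt carbo (top) and cis SSP carbo against cis carbo (bottom). Points are medians and bars interquartile ranges over genes, and the long arm of chromosome 8 is in orange. Its median of 0.65 is the highest in the top panel and its median of -0.60 the lowest in the bottom panel, whereas the short arm lies at 0.10 and 0.02.

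The position profile was then cut into segments. Members in order of midpoint were partitioned by least squares on the untreated profiles of cis against wt and of cis SSP against cis, with at least 10 genes per segment. A segment was called reverting when its untreated medians had opposite signs and both were at least 0.2 in size. Since the cut used the untreated libraries, the other 3 conditions are the ones that were not used for it. There were 3 segments, and 2 reverted.

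The segment next to the centromere held 37 members from SPIDR to TERF1 (chr8:48173470-73960358, GRCh37). Its median of cis against wt was 0.33 in the libraries used for the cut and 0.43, 0.47 and 0.55 with carboplatin, in -SG and with both. For cis SSP against cis the medians were -0.77, and then -0.65, -0.64 and -0.59. Against wt, cis SSP ended a little below, at -0.31 and then -0.14, -0.25 and -0.14. The fall in cis SSP was therefore larger than the rise in cis. Of the 37 members, 23, 25 and 23 were called higher in cis than wt in the 3 held-out conditions, and 9, 5 and 6 lower. Of all genes, 40.3, 40.8 and 37% were called higher there and 41.6, 40.3 and 37.2% lower. In cis SSP against cis, 31, 23 and 31 were called lower, and 4, 1 and 2 higher, with 34.5, 23.2 and 36.5% of all genes lower and 34.7, 21.6 and 37.3% higher. Library 25 alone read -0.54 over this segment, where the other 2 untreated cis SSP libraries read -0.14 and -0.17. Library 32 read -0.36, where its 2 companions read -0.11 and -0.12. Without these libraries the medians of cis SSP against cis were -0.65 in complete medium and -0.54 in -SG, and those of cis SSP against wt were -0.17 and -0.14.

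The second segment was short, with 12 members from RDH10 to PEX2 (chr8:74206837-77913280), and it did not revert. Its median of cis against wt was -2.01 in complete medium and -2.42, -1.69 and -2.25 in the held-out conditions. The cis SSP cells were lower still, with medians against cis of -0.93, -0.89, -0.78 and -0.65, and medians against wt of -2.57, -2.99, -2.76 and -2.99. Its members varied, and their mean log2 fold change of cis against wt over the held-out conditions ran from -8.16 (PI15) to 1.12 (UBE2W). In the held-out conditions, 7, 9 and 9 of its 12 members were called lower in cis and 3, 3 and 2 higher. Of all genes, 41.6, 40.3 and 37.2% were called lower and 40.3, 40.8 and 37% higher. JPH1, CRISPLD1, HNF4G and ZFHX4 of this segment reached the level of 8 CPM only through wt. Their high level in wt enters the medians and counts of the segment, which are therefore a description.

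The third segment held the other 155 members, from ZC2HC1A to C8orf33 (chr8:79578285-146292071). Its medians of cis against wt were 0.61, 0.69, 0.54 and 0.61 in complete medium, with carboplatin, in -SG and with both. Those of cis SSP against cis were -0.61, -0.56, -0.55 and -0.44, and those of cis SSP against wt 0.01, 0.09, 0.01 and 0.11. In the held-out conditions 133, 116 and 107 members were called higher in cis than wt and 14, 24 and 24 lower. Of all genes, 40.3, 40.8 and 37% were called higher and 41.6, 40.3 and 37.2% lower. In cis SSP against cis, 134, 74 and 109 were called lower and 6, 3 and 18 higher, with 34.5, 23.2 and 36.5% of all genes lower and 34.7, 21.6 and 37.3% higher. Over this segment the medians of cis SSP thus lay near those of wt. Library 32 was the highest of the cis SSP libraries here, at 0.20, and the other 11 ran from -0.01 to 0.14.

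**Figure D2:**
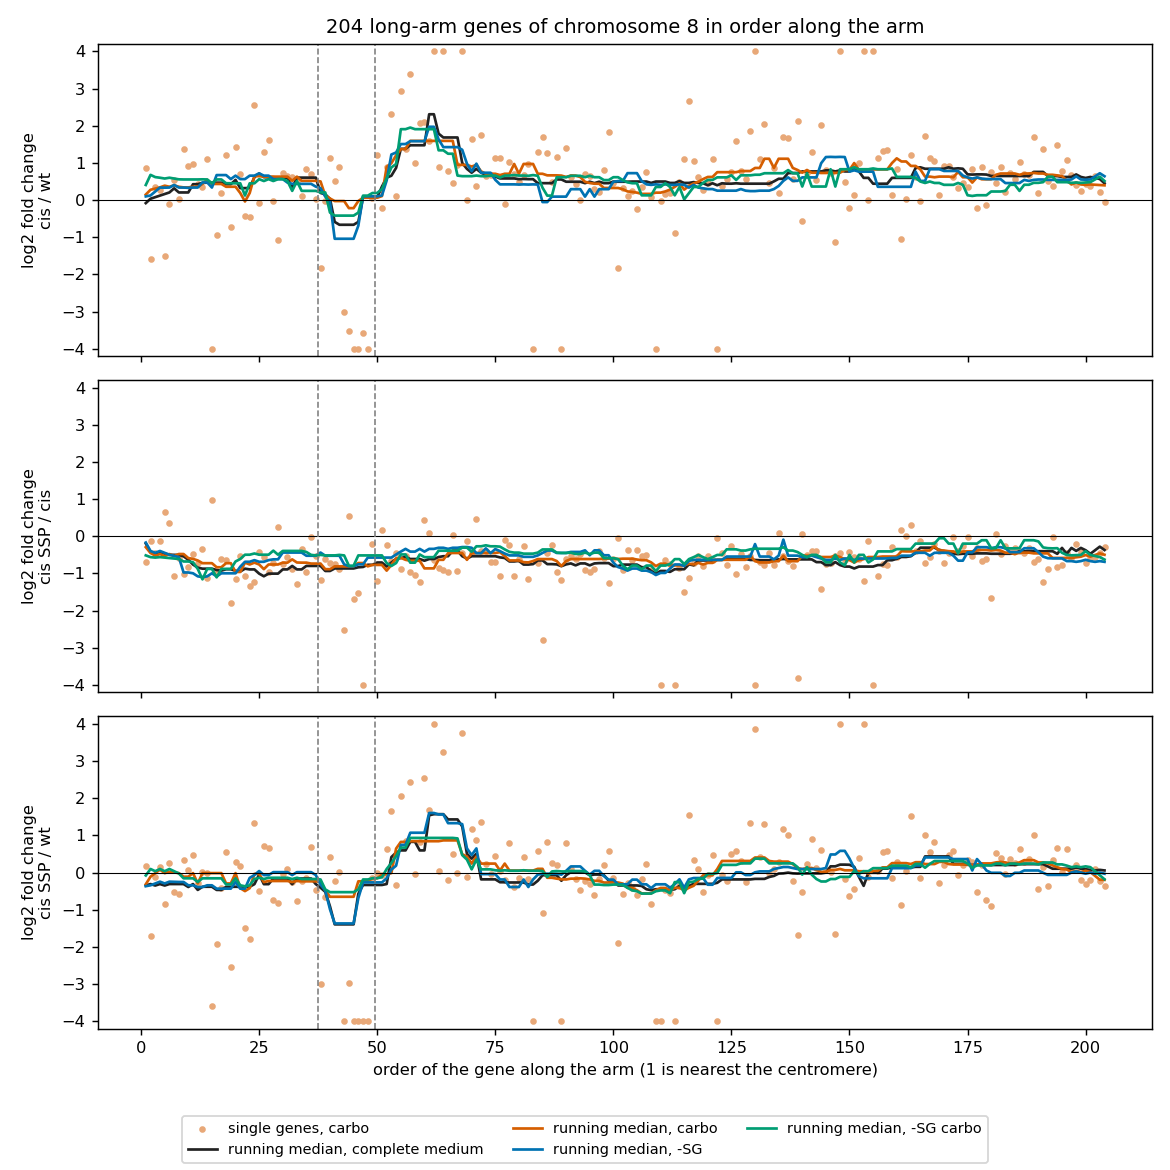
Log2 fold change of the 204 members in order along the arm, for cis against wt (top), cis SSP against cis (middle) and cis SSP against wt (bottom). Points are single genes with carboplatin, drawn at the edge when beyond 4 in size. Solid lines are running medians of 15 genes in the 4 conditions of medium and drug, and dashed lines are the segment borders after TERF1 and PEX2. The solid lines run mostly above 0 in the top panel and below 0 in the middle panel on both sides of the second segment, and near 0 in the bottom panel except around that segment and the stretch after it.

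With the penalty for a cut set to a lower value the third segment was divided, and the piece next to the second segment stood out. This stretch of 23 members ran from ZC2HC1A to TMEM64 (chr8:79578285-91803860). Its medians of cis against wt were 1.47, 1.37, 1.51 and 1.25, and the untreated value was the highest among the 5 pieces of that partition. In cis SSP it came down only in part, with medians against cis of -0.56, -0.53, -0.34 and -0.39. Against wt it remained at 1.24, 0.84, 1.30 and 0.92. In the 12 cis libraries its median relative to wt ran from 1.15 to 1.54, in the 12 cis SSP libraries from 0.80 to 1.39. Within complete medium the 3 cis libraries read 1.46 to 1.53 and the 3 cis SSP libraries 1.19 to 1.35. In -SG the cis libraries read 1.38 to 1.54 and the cis SSP libraries 1.21 to 1.39, so these groups overlapped.

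**Figure D3:**
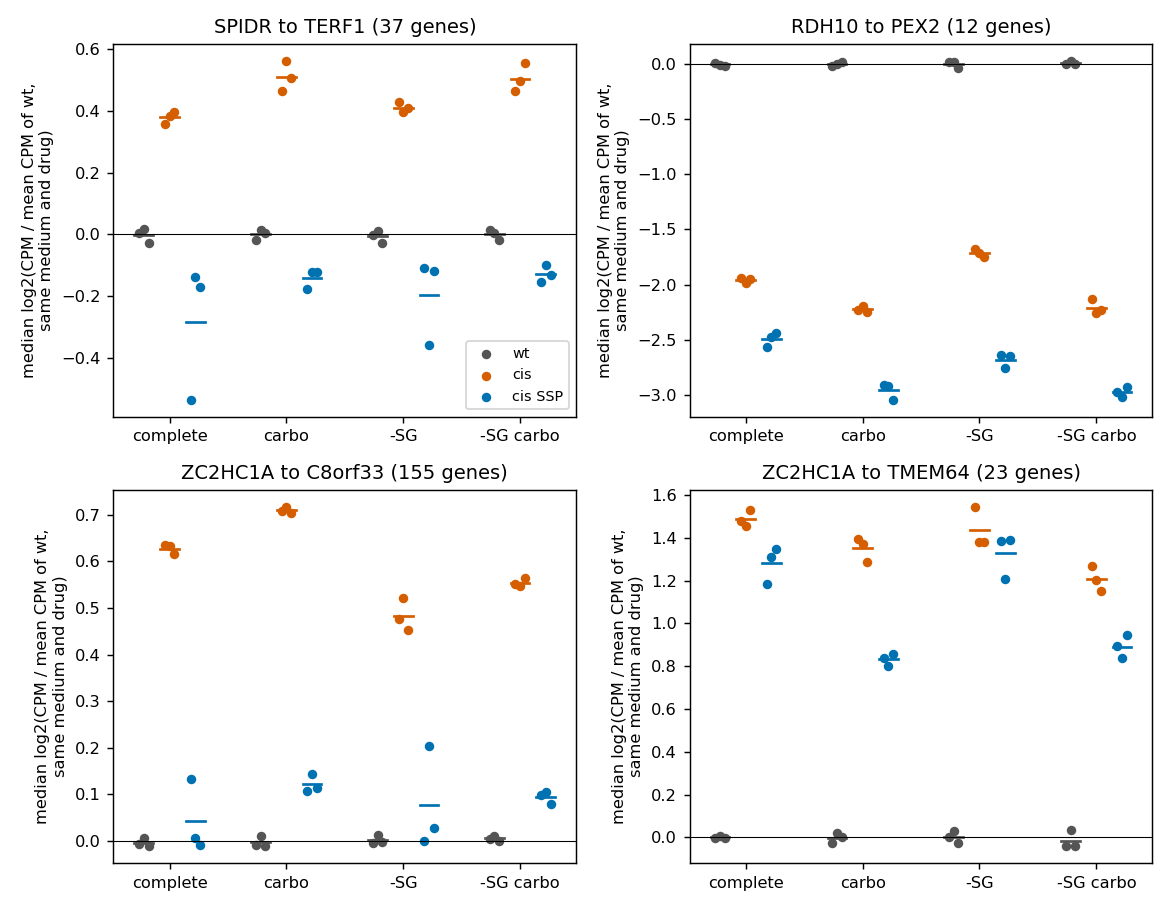
Median over the members of each stretch of log2(CPM over the mean CPM of the wt libraries in the same medium and drug). Each point is 1 library, bars are means of 3 libraries, and the 4 panels are the 3 segments and the stretch from ZC2HC1A to TMEM64. In the segments before and after the second the cis libraries stand above both other lines, in the second both derived lines lie far below wt, and in the last panel both lie above wt.

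The fold changes of single members were only partly alike between conditions. Over the 204 members, which share their libraries within a condition, Pearson's r between conditions ran from 0.90 to 0.96 for cis against wt and Spearman's rho from 0.51 to 0.82. The highest r and rho used the untreated libraries, on which the set was proposed. Between carboplatin and -SG, 160 of the 204 members had the same sign. For cis SSP against cis, over 200 to 202 members, r ran from 0.81 to 0.95 and rho from 0.50 to 0.85.

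The genes that carried the first segment are described next. TCEA1 (chr8:54879112-54935008) encodes the elongation factor TFIIS, which rescues stalled RNA polymerase II. With carboplatin it read 69.1, 72.9 and 70 CPM in wt, 183, 180 and 187 CPM in cis, and 84.6, 93.1 and 91.2 CPM in cis SSP. The cis libraries were all far above the others, and cis SSP stood slightly above wt. The log2 fold change was 1.36 ± 0.03 (SE, adjusted p = 4.63e-40) for cis against wt, and -1.02 ± 0.03 (adjusted p = 5.25e-20) for cis SSP against cis. In -SG the gap widened, with 140, 140 and 143 CPM in wt, 511, 500 and 489 CPM in cis, and 147, 182 and 139 CPM in cis SSP. NSMAF, an adaptor that links the TNF receptor to neutral sphingomyelinase, read 52.7, 53.5 and 50.2 CPM in wt -SG carbo, 151, 148 and 148 CPM in cis -SG carbo, and 66.4, 70.6 and 65.6 CPM in cis SSP -SG carbo. The groups did not overlap, and the log2 fold changes were 1.55 ± 0.07 (adjusted p = 1.57e-09) and -1.16 ± 0.04 (adjusted p = 2.12e-12). LYN, a kinase of the Src family, came back to the wt level with carboplatin. It read 69.8, 73.6 and 70.8 CPM in wt carbo, 157, 150 and 156 CPM in cis carbo, and 71.3, 70.7 and 70.2 CPM in cis SSP carbo, and its difference between cis SSP and wt was -0.02 ± 0.04 (adjusted p = 0.704). In the other 3 conditions LYN in cis SSP lay below wt without overlap, with 64.2, 64.5 and 66.8 CPM in cis SSP -SG carbo against 74, 73.2 and 72.6 CPM in wt -SG carbo (-0.16 ± 0.05, adjusted p = 0.023). UBXN2B, a cofactor of the p97 ATPase, was the fourth of these genes, with log2 fold changes of cis against wt of 1.22, 1.79 and 2.07 with carboplatin, in -SG and with both, and of cis SSP against cis of -0.65, -1.41 and -1.26.

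The genes at the ends of this segment differed from each other with carboplatin. SPIDR, a scaffold of homologous recombination repair, read 37.9, 38.8 and 43.8 CPM in untreated wt and 42.5, 41.8 and 41 CPM in untreated cis, which overlapped. With carboplatin it fell in wt to 24, 21.6 and 22.4 CPM (log2 fold change -0.82 ± 0.05 against untreated wt, adjusted p = 5.38e-43) and stood at 42.2, 39.9 and 42.9 CPM in cis, where the change was 0.01 ± 0.05 (adjusted p = 0.905). Its difference between cis and wt under carboplatin was 0.86 ± 0.06 (adjusted p = 7.06e-20). In cis SSP carbo SPIDR read 25.9, 24.7 and 26.2 CPM, well below cis carbo and slightly above wt carbo. TERF1, a telomere-binding protein of the shelterin complex, was within 0.04 ± 0.05 between cis and wt with carboplatin (adjusted p = 0.449). It was lower in cis SSP than cis, with 40.3, 36.2 and 38.9 CPM in cis carbo and 26.5, 26.6 and 26.5 CPM in cis SSP carbo (log2 fold change -0.52 ± 0.05, adjusted p = 2.37e-09).

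Other genes of the first segment departed from it. SDCBP encodes syntenin-1, a scaffold in exosome formation. It was near 87 CPM in untreated wt (87, 86.8 and 86.8) and 81.7, 83.3 and 86.7 CPM in untreated cis, but 21.9, 17.7 and 17.9 CPM in untreated cis SSP. With carboplatin wt rose to 154, 160 and 157 CPM while cis stood at 96.9, 92.9 and 97.8 CPM and cis SSP at 26.1, 29.5 and 26 CPM. Its fall from cis to cis SSP with carboplatin was -1.80 ± 0.05 (adjusted p = 3.23e-22). PLAG1, a zinc finger transcription factor, read 10, 9.63 and 9.42 CPM in wt carbo, but 0.344, 0.378 and 0.496 CPM in cis carbo and 0.727, 0.767 and 0.917 CPM in cis SSP carbo. It stayed low in both derived lines (log2 fold change of cis against wt -4.57 ± 0.20), and since it reached the level of 8 CPM only through wt, this is given without a test. The 2 members called higher in cis SSP than cis in all 3 held-out conditions, named here after their values were seen, were SNAI2 and DECR1. SNAI2, which encodes the epithelial-mesenchymal transition factor Slug, read 159, 157 and 154 CPM in wt carbo, 60.9, 53.4 and 52.5 CPM in cis carbo, and 89.4, 87 and 84.1 CPM in cis SSP carbo. It was thus lowest in cis and partly regained in cis SSP (0.66 ± 0.05, adjusted p = 7.5e-12). DECR1, a mitochondrial reductase for unsaturated fatty acids, lies in the third segment and rose in both steps, with 39.4, 37.1 and 41 CPM in wt carbo, 51.9, 53.1 and 51.3 CPM in cis carbo, and 71.5, 71.3 and 71.8 CPM in cis SSP carbo.

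In the second segment, PI15, a secreted peptidase inhibitor, was strongly expressed in wt and far lower in the derived lines. With carboplatin it read 4008, 4077 and 4110 CPM in wt, 29.9, 28.4 and 30.5 CPM in cis, and 9.19, 9.10 and 9.11 CPM in cis SSP. The log2 fold change was -7.12 ± 0.03 for cis against wt (adjusted p = 5.17e-77) and -1.68 ± 0.07 for cis SSP against cis (adjusted p = 1.18e-17). In -SG cis and cis SSP overlapped, at 6.58, 7 and 7.62 CPM and 9.82, 3.75 and 9.81 CPM. ZFHX4, a zinc finger homeobox factor, read 41.3, 41.6 and 44.4 CPM in wt carbo and 0.115, 0 and 0.496 CPM in cis carbo, and had no count in any of the 3 cis SSP carbo libraries. With a floor of 3 counts per library it was at least 259-fold lower in cis SSP carbo than in wt carbo. RDH10, an enzyme of retinoic acid synthesis at the start of the segment, fell in 2 steps, from 347, 346 and 353 CPM in wt carbo to 97.3, 100 and 101 CPM in cis carbo and 44.6, 44.9 and 40.9 CPM in cis SSP carbo. An annotated gene that overlaps RDH10 had counts equal to 0.726% of its own. GDAP1, a mitochondrial outer membrane protein linked to fission, read 86.4, 86.4 and 90.4 CPM in wt carbo, 7.80, 8.02 and 7.26 CPM in cis carbo and 11.5, 11.3 and 10.4 CPM in cis SSP carbo, and an overlapping gene had counts equal to 17.1% of its own.

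UBE2W, ELOC, TMEM70 and PEX2 were among the members of that segment that did not stand far below wt. UBE2W, an E2 enzyme that places ubiquitin on protein N-termini, read 19, 20.3 and 20.2 CPM in wt carbo, 44.8, 44.2 and 42.8 CPM in cis carbo and 27.2, 27.9 and 24.6 CPM in cis SSP carbo. It followed the pattern of the neighbouring segments, with log2 fold changes of 1.13 ± 0.06 (adjusted p = 6.9e-25) and -0.71 ± 0.05 (adjusted p = 7.11e-12). ELOC and TMEM70, the members after it, were named once their values were seen. With carboplatin ELOC read 73.2, 74.2 and 70.4 CPM in wt, 104, 101 and 107 CPM in cis and 56.7, 64.5 and 64.3 CPM in cis SSP. TMEM70 read 32.3, 30.2 and 30.8 CPM, 59.2, 56.3 and 59.6 CPM, and 29.4, 33.4 and 30.9 CPM. With both treatments ELOC was lower in cis than in wt, and TMEM70 overlapped. PEX2, a peroxisomal import protein, differed by 0.06 ± 0.06 between cis and wt with carboplatin (adjusted p = 0.314) and by -0.69 ± 0.05 in -SG (adjusted p = 5.56e-11). Carboplatin lowered it in wt, from 53.1, 51.5 and 50.4 CPM to 28.2, 26.8 and 27.9 CPM.

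Beyond the second segment, the stretch up to TMEM64 held several genes that stayed high in cis SSP. CA13, a cytosolic carbonic anhydrase, read 2.59, 3.17 and 2.52 CPM in wt carbo, 49.1, 50.7 and 51 CPM in cis carbo, and 25.6, 26.4 and 27.1 CPM in cis SSP carbo. Its level in cis SSP was -0.91 ± 0.05 against cis and 3.25 ± 0.10 against wt on the log2 scale, and since CA13 reached the level of 8 CPM only through cis, these are given without a test. SNX16, a sorting nexin of endosomes, was about as high in cis SSP as in cis with carboplatin, with 75, 68.7 and 76.4 CPM in wt carbo, 231, 217 and 224 CPM in cis carbo, and 229, 236 and 239 CPM in cis SSP carbo. Its difference of 0.08 ± 0.03 between cis SSP and cis was small (adjusted p = 0.00933) and the groups overlapped. With both treatments it was lower in cis SSP, at 231, 232 and 229 CPM against 288, 299 and 305 CPM in cis (-0.39 ± 0.03, adjusted p = 8.76e-08). CHMP4C, a subunit of the ESCRT-III complex that acts in abscission, went from 12.2, 12.7 and 11.4 CPM in wt carbo to 53.3, 50.9 and 52.2 CPM in cis carbo and to 69.9, 72.9 and 67.2 CPM in cis SSP carbo (cis SSP against cis 0.44 ± 0.04, adjusted p = 4.97e-10). With both treatments the direction was the opposite, with 159, 140 and 145 CPM in cis and 83.2, 82.3 and 83.1 CPM in cis SSP (-0.86 ± 0.05, adjusted p = 3.16e-10). ZFAND1, which takes part in clearing stress granules, read 32.1, 31.8 and 32.8 CPM, 137, 136 and 136 CPM, and 56.4, 56.4 and 58.7 CPM in the same groups. CHMP4C and ZFAND1 overlap each other in the annotation, so their counts cannot be fully told apart. ZNF704, a zinc finger factor, fell only in part, with 11.6, 12.3 and 10.5 CPM in wt carbo, 87.6, 94.8 and 86 CPM in cis carbo and 47.7, 46.8 and 48.8 CPM in cis SSP carbo. ZC2HC1A, at the start of the stretch, came back fully, with 5.18, 5.73 and 4.92 CPM, 14, 11.9 and 10.8 CPM, and 4.72, 5.64 and 5.33 CPM.

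In the rest of the third segment some genes were far higher in cis than in both other lines. KHDRBS3 (chr8:136469699-136668965), an RNA-binding regulator of splicing, read 0.216, 0.244 and 0.117 CPM in wt carbo, 140, 133 and 139 CPM in cis carbo, and 0.415, 0.493 and 0.860 CPM in cis SSP carbo. It was on in every cis library, from 133 to 193 CPM, and at or below 1.54 CPM in all 12 cis SSP libraries. Its log2 fold change of cis SSP against cis was -7.84 ± 0.09 with carboplatin. COL14A1, a fibril-associated collagen, had the same order of levels, with 0.0540, 0.183 and 0.0585 CPM in wt carbo, 25.3, 24.9 and 25 CPM in cis carbo, and 1.61, 1.59 and 1.32 CPM in cis SSP carbo (cis SSP against cis -4.03 ± 0.11). TMEM65, a protein of the mitochondrial inner membrane, rose in cis and then fell below wt, with 4.91, 4.75 and 4.86 CPM, 22.9, 21.3 and 20.3 CPM, and 1.51, 1.32 and 1.72 CPM in the same groups. KHDRBS3, COL14A1 and TMEM65 reached the level of 8 CPM only through cis, so their values are a description without a test.

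ST3GAL1 and LRATD2 were switched on in cis and remained on in cis SSP. ST3GAL1 (chr8:134467091-134584169), which adds sialic acid to O-glycans, had no count in the 3 untreated wt libraries and 66.9, 69.2 and 69.7 CPM in untreated cis, at least 422-fold more with a floor of 3 counts per library. With carboplatin it read 0.0540, 0.0609 and 0 CPM in wt, 67.1, 66.5 and 66.5 CPM in cis, and 28, 27.7 and 30.3 CPM in cis SSP, a log2 fold change of -1.20 ± 0.05 against cis. LRATD2 read 1.19, 1.16 and 0.937 CPM in wt carbo, 41.6, 39.3 and 40.4 CPM in cis carbo, and 28.6, 28.9 and 29.9 CPM in cis SSP carbo. In -SG it reached 110, 102 and 104 CPM in cis and 33.9, 29 and 33.6 CPM in cis SSP. Both genes reached the level of 8 CPM only through cis, so these values too are given without a test.

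A further group was lost in both derived lines and did not come back. TP53INP1, a p53 target gene that acts in stress-induced autophagy, read 32.9, 34.1 and 32.7 CPM in untreated wt and rose to 143, 147 and 151 CPM with carboplatin (2.15 ± 0.04). It reached the level of 8 CPM only through wt, so this rise is given without a test. In the 12 cis libraries it stayed at or below 0.943 CPM and in the 12 cis SSP libraries at or below 0.164 CPM, with or without the drug. TP53INP1 lies within an interval shared with NDUFAF6, a complex I assembly factor, which was present in all lines. SDC2, the heparan sulphate proteoglycan syndecan-2, read 146, 140 and 144 CPM in wt carbo, 0.802, 1.21 and 0.806 CPM in cis carbo, and 0.363, 0.274 and 0.573 CPM in cis SSP carbo. BAALC read 35.8, 35.2 and 34.3 CPM in untreated wt and 0.196, 0.321 and 0.501 CPM in untreated cis, and had no count in untreated cis SSP, at least 186-fold below wt. TRPS1, a GATA-type repressor, read 71, 74.4 and 81.4 CPM in wt carbo, 3.10, 2.95 and 3.29 CPM in cis carbo and 2.86, 2.63 and 3.50 CPM in cis SSP carbo, the last 2 groups overlapping. BAALC too reached the level of 8 CPM only through wt, and SDC2 and TRPS1 stood below that level in cis carbo. The low values of this group in cis are therefore a description without a test.

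**Figure D4:**
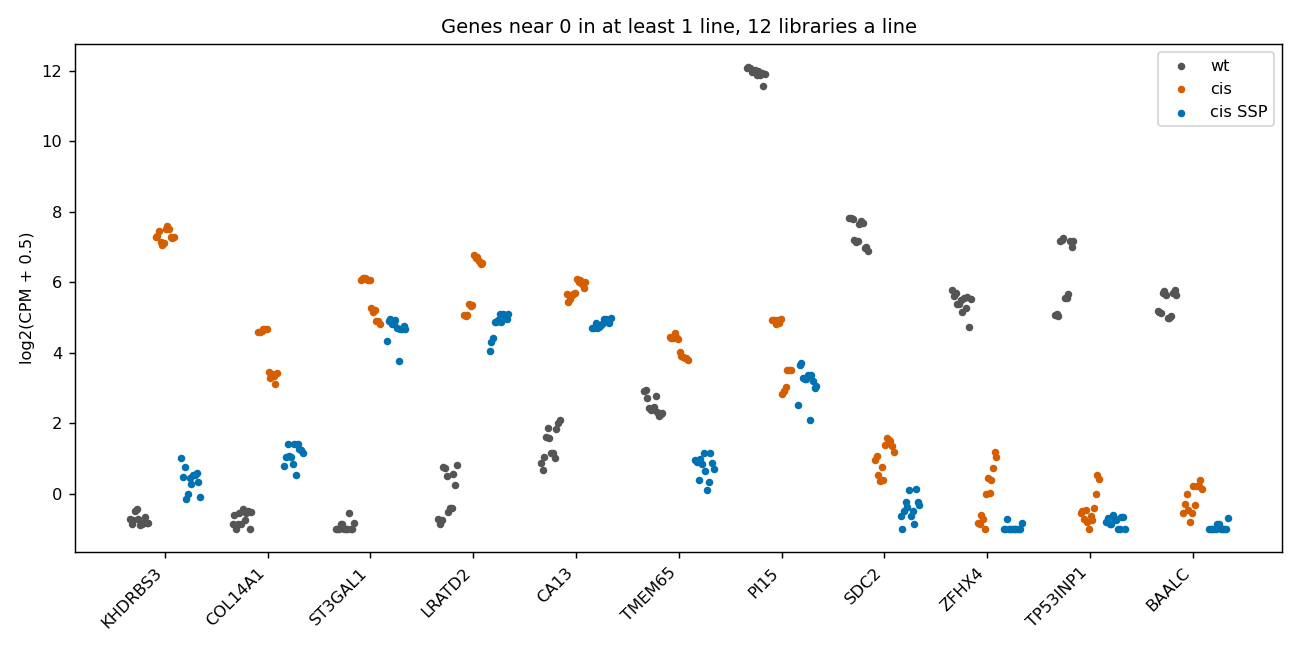
Log2(CPM + 0.5) of 11 members in the 12 libraries of each line, grouped by gene, with 1 point per library and libraries of 1 line in order of medium. KHDRBS3 and COL14A1 are high only in cis among these lines, ST3GAL1, LRATD2 and CA13 are high in cis and cis SSP, TMEM65 is lowest in cis SSP, and PI15, SDC2, ZFHX4, TP53INP1 and BAALC are high in wt.

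The members were also grouped by textbook role into 8 lists, which together held 142 of the 204. Over the 3 held-out conditions the mean log2 fold change of all members had a median of 0.56 for cis against wt and -0.53 for cis SSP against cis, and the 62 members in no list had 0.65 and -0.64. The list medians ran from 0.30 to 0.70 for cis against wt and from -0.75 to -0.28 for cis SSP against cis. Beside the counts below, 20.3% of all genes were called higher and 20.2% lower in cis in all 3 conditions, and 12.8% lower and 14.5% higher in cis SSP. Of all 204 members, 108 were called higher and 17 lower in cis, and 93 lower and 2 higher in cis SSP. The counts include members that reached the level of 8 CPM only through cis or only through wt, such as TP53INP1.

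Genome maintenance genes numbered 14, with medians of 0.54 and -0.28. In cis against wt, 5 were called higher in all 3 conditions and 1 lower (TP53INP1), and in cis SSP against cis 4 were called lower. The medians differed between conditions. For cis against wt they were 0.80, 0.03 and 0.61 with carboplatin, in -SG and with both. For cis SSP against cis they were -0.52, -0.04 and 0.11. With both treatments 5 were called higher and 6 lower in cis SSP than cis, near the shares of all genes of 37.3 and 36.5%. CHRAC1, a histone-fold subunit of a chromatin remodelling complex, read 39.3, 41 and 39.5 CPM in wt carbo, 103, 93.9 and 105 CPM in cis carbo, and 57.9, 62.1 and 56.8 CPM in cis SSP carbo. MTBP, which takes part in origin firing, fell in wt with carboplatin from 22.9, 23.7 and 24 CPM to 8.64, 8.04 and 7.55 CPM (-1.53 ± 0.08, adjusted p = 2.11e-68). It stood at 34, 34.9 and 33.7 CPM in cis carbo and 19.4, 20.5 and 19.8 CPM in cis SSP carbo, so the lines differed more with the drug than without it. The largest of the annotated genes that overlap MTBP had counts equal to 211% of its own.

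Transcription and chromatin genes numbered 24, with medians of 0.48 and -0.62. In cis 12 were called higher and 3 lower in all 3 conditions, and in cis SSP 9 were called lower than in cis and 1 higher. RNA processing and translation genes numbered 16, with medians of 0.30 and -0.43, and 6 were called higher in cis and 5 lower in cis SSP. AGO2, the slicing Argonaute, read 39.9, 42.9 and 42.1 CPM in wt carbo, 102, 114 and 107 CPM in cis carbo and 60.2, 65.1 and 60.4 CPM in cis SSP carbo. EEF1D, a subunit of the exchange factor of translation elongation, read 134, 136 and 128 CPM, 252, 257 and 253 CPM, and 159, 152 and 147 CPM. Libraries 25 and 32 left their groups here, at 239 and 228 CPM of EEF1D against 145 to 147 and 121 to 125 CPM in the libraries beside them. For AGO2 they read 28.5 and 28.8 CPM, against 56.1 to 58.6 and 54.6 to 56.7 CPM.

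Ubiquitin and protein turnover genes numbered 13, with medians of 0.64 and -0.75. In this list 9 were called higher in cis in all 3 conditions and none lower, and 8 were called lower in cis SSP and none higher. Mitochondrial genes numbered 20, with medians of 0.59 and -0.33, with 11 called higher and 1 lower in cis, and 8 called lower and 1 higher in cis SSP. TOP1MT, the topoisomerase of mitochondrial DNA, read 50.9, 53.9 and 53 CPM in wt carbo, 174, 182 and 175 CPM in cis carbo and 105, 107 and 106 CPM in cis SSP carbo, so that it stayed 1.01 ± 0.04 above wt on the log2 scale (adjusted p = 1.44e-64). NDUFAF6 read 8.26, 7.31 and 7.14 CPM, 20.3, 17.2 and 18.7 CPM, and 11.4, 10.5 and 12 CPM.

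Metabolism and transport genes numbered 13, with medians of 0.70 and -0.63. Of these 11 were called higher in cis in all 3 conditions, and 10 were called lower in cis SSP. Secretory pathway, vesicle and lysosome genes numbered 19, with medians of 0.55 and -0.47, with 10 called higher and 1 lower (SDCBP) in cis and 7 lower in cis SSP. Signalling, adhesion and cytoskeleton genes numbered 23, with medians of 0.46 and -0.58. In cis 9 were called higher and 2 lower, and in cis SSP 12 were called lower. ANGPT1, a ligand of the TIE2 receptor, read 4.10, 3.60 and 3.80 CPM in wt carbo, 25, 25 and 24.4 CPM in cis carbo and 10.4, 11.5 and 12.1 CPM in cis SSP carbo. PTP4A3, the phosphatase PRL-3, was lower in cis, with 14.7, 15.3 and 12.6 CPM in wt carbo and 5.5, 9.45 and 6.51 CPM in cis carbo, and at 8.46, 7.78 and 6.88 CPM in cis SSP carbo it overlapped with cis.

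**Figure D5:**
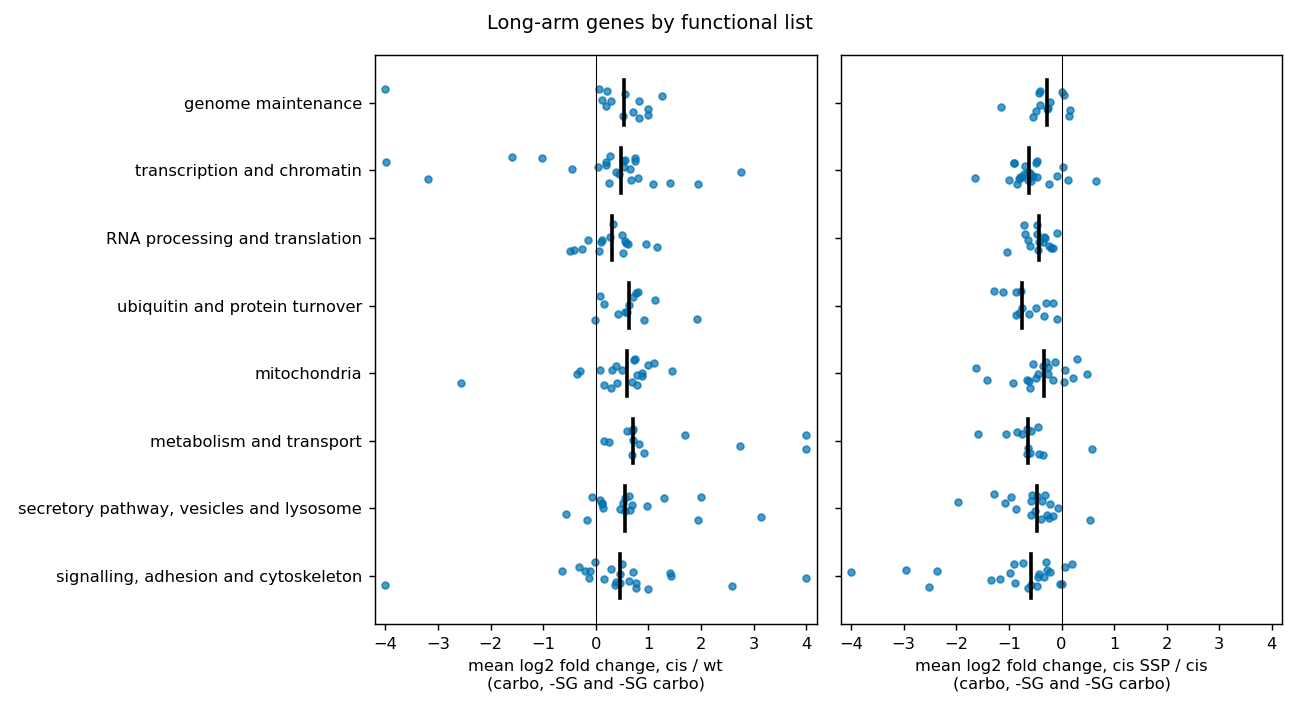
Mean log2 fold change over the 3 conditions with carboplatin, without serine and glycine and with both, for cis against wt (left) and cis SSP against cis (right). Points are members, drawn at the edge when beyond 4 in size and omitted when not testable in all 3, and black bars are list medians. The medians lie between 0.30 and 0.70 on the left and between -0.75 and -0.28 on the right.

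C8orf33, the last member before the end of the arm, showed how a single gene can vary with the medium. It read 69.4, 69.1 and 65.2 CPM in wt carbo and 66.4, 63.6 and 67.2 CPM in cis carbo (-0.06 ± 0.04, adjusted p = 0.141). In -SG it read 46.2, 49.9 and 46.6 CPM in wt and 96, 94.3 and 95.4 CPM in cis (1.05 ± 0.04, adjusted p = 1.71e-15).

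Last, it was asked whether the members moved with treatment within a line. Many single genes did, in both directions, and the arm as a whole did not. In wt, carboplatin raised 76 and lowered 93 of 201 members (all genes 38.9 and 39%), with a median of -0.05, and -SG raised 55 and lowered 69 of 200 (24.1 and 25.1%), also with a median of -0.05. In cis, carboplatin raised 20 and lowered 24 of 200 (9.27 and 10.8%) with a median of 0.01, and -SG raised 65 and lowered 96 of 202 (37.6 and 37.4%) with a median of -0.08. The members with large changes in cis under -SG included CHMP4C, from 56.4, 56.1 and 58.7 CPM to 193, 189 and 188 CPM (1.80 ± 0.04, adjusted p = 1.45e-38). TCEA1 rose by 1.47 ± 0.03 (adjusted p = 1.65e-38), while PI15 fell by 1.98 (SE 0.08, adjusted p = 2.53e-26). LRATD2 rose by 1.75 ± 0.04 and COL14A1 fell by 1.19 (SE 0.08). Both reached the level of 8 CPM only through cis, so their changes are given without a test.

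In cis SSP, edgeR called 1 of 196 members higher and 0 lower with carboplatin (all genes 1.97 and 0.749%), with 31 members at an unadjusted p under 0.05 (16.9% of all genes) and 8 called by DESeq2 (4.35%). Without library 25 the number called was 95, where 41.2% of all genes were. In -SG edgeR called 0 of 196 (all genes 0.0218% higher and 0% lower), with 9 at an unadjusted p under 0.05 (6.6%) and 2 called by DESeq2 (0.711%). Without libraries 25 and 32 the number was 78, where 35.9% of all genes were. The number of calls in cis SSP thus depends on these 2 libraries, and the medians were 0.00 and 0.03.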

How the data were processed

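RNA of 12 conditions, with 3 libraries each, was prepared with a strand-keeping mRNA kit and read as single 65-base reads. Per the paper's methods, the authors aligned reads with STAR to GRCh37 and counted them in exons with HTSeq (GENCODE), and the deposited values are raw read counts per gene, not normalized. The strand setting of the counting was not given in the sources used here, and 98 members overlap another annotated gene, for 40 of which that gene had at least 20% of the member's counts. The submitters' processing notes also list DESeq, DESeq2 and hg19.

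From the counts, 3 rows that name no gene were left out (4.21 to 17.9% of reads without a feature). Positions came from GENCODE lifted to GRCh37. CPM (counts over library sizes scaled by TMM across the 36 libraries) served for values of single libraries. Each comparison was fitted on all genes of the table with edgeR 4.0.16 in R 4.3.3 (TMM, filterByExpr, robust quasi-likelihood fit and test, Benjamini-Hochberg adjustment over all genes tested, called at 0.05), using the 3 libraries of each of 2 conditions. DESeq2 1.42.0, other scalings and filters, fold limits and left-out libraries were alternatives. Tables and plots used Python 3.11.15, pandas 2.3.3, numpy 2.4.6 and matplotlib 3.10.9. The scripts were tested on simulated data.

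Segments came from least-squares optimal partitioning of both untreated profiles, limited to 1.5 in size, with a minimum of 10 genes and a penalty of 3 times the log of the number of members per profile and cut. A fold against libraries without counts used a floor of 3 counts per library, and intervals of this kind cover counting error only. Genes were named by rule: per list up to 2 higher and 2 lower in cis than wt and called in all 3 held-out conditions without overlap of libraries, the 5 highest and 5 lowest members, 4 per reverting segment with the largest opposite changes, segment ends and threshold neighbours. Members, lists and rules were chosen with earlier results of these data known. P-values measure the spread between technical replicates.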

Additional observations from a re-analysis of the deposited data

Results flagged for a closer look

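In the segment from SPIDR to TERF1, every wt library moved one way with carboplatin and every cis SSP library the other. Relative to the untreated libraries of the same line, the segment's median log2 value was -0.06, -0.03 and -0.08 in the 3 wt carbo libraries and 0.08, 0.05 and 0.10 in the 3 cis SSP carbo libraries, a difference of -0.13 between the group means. This difference was not tested, and the untreated cis SSP libraries include library 25, which stood apart over this segment.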

How the results depend on the processing

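Of 271 values of counts, medians and segments under alternatives, 225 stayed within the limits set for them and 46 moved. Of 939 values of named genes, 930 kept direction and side of the threshold, 7 lost significance (SNX16 and PLAG1 3 times each, SDC2 once), 2 gained it (C8orf33, PTP4A3), and 0 reversed. With a log2 fold of at least 0.5 added, the members called were 107 for cis SSP -SG carbo against cis -SG carbo, 90 and 91 for cis SSP against wt with carboplatin and with both, 71 and 16 for wt with carboplatin and with -SG, and 3 and 69 for cis. One fit over all 36 libraries called 46 for wt -SG, 5 for cis carbo, 43 for cis SSP carbo and 23 for cis SSP -SG. DESeq2 called 26, 8 and 2 in the last 3 of these, cis SSP carbo had 3 with the length trend removed and 3 without a filter, and cis SSP -SG had 78 without libraries 25 and 32. The untreated median of cis against wt was 0.58 (one fit), 0.55 (DESeq2 size factors), 0.58 (length trend), 0.53 (count minimum of 10) and 0.59 (no filter). That of cis SSP against cis was -0.66 (DESeq2 Wald test) and -0.59 (count minimum of 10), and that of cis SSP against wt -0.016 (one fit), -0.026 (length trend) and -0.031 (total counts). The number of reverting segments was 4 of 5 with the penalty halved, 1 of 1 with it doubled and 10 of 11 windows of 10 Mb. These counts of members stand without the share of all genes under the same alternative, so they show only how far the counts moved. The causes were not tested.

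Leaving out 1 library at a time gave 186 to 191, 176 to 183 and 164 to 178 members called for cis against wt with carboplatin, in -SG and with both. It gave 181 to 185, 79 to 184 and 166 to 171 for cis SSP against cis, and 172 to 176, 60 to 163 and 134 to 168 for cis SSP against wt. The treatments gave 164 to 169 and 107 to 129 in wt, 32 to 47 and 154 to 157 in cis, and 0 to 95 and 0 to 0 in cis SSP. The untreated medians ran from 0.54 to 0.57, from -0.67 to -0.61 and from -0.08 to -0.07, and 1 to 2 segments reverted. The value of 1 came without the third cis library. Without libraries 23 and 24, 151 members were called for cis against wt and 165 for cis SSP against cis with both treatments. These counts, too, are given without the share of all genes in the same fits and show only how far they moved. Scaling by total counts shifted the median of all genes by over 0.1 only with both treatments (0.15 for cis against wt, -0.14 for cis SSP against cis). Split at the median transcript length of 1005.5 bases, an alternative added after seeing the data, the shorter and longer members had medians of cis SSP against cis of -0.64 and -0.52 with carboplatin, -0.52 and -0.63 in -SG, and -0.44 and -0.53 with both. No paired analysis was possible because the labels give no replicate numbers within a condition that could link libraries across conditions. With 1 line per state and technical replicates, these tests say nothing about other clones.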

Other observations

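Some further members outside the rule for named genes differed between cis and cis SSP, and those given here were picked after their values were seen. FZD6, a Wnt receptor of the Frizzled family, read 13.3, 14.3 and 13.5 CPM in wt carbo and 12.5, 15.3 and 13.6 CPM in cis carbo, which overlapped, but 0.467, 0.548 and 0.287 CPM in cis SSP carbo (-4.93 ± 0.18 against cis, adjusted p = 1.02e-18 by edgeR). It was at or below 0.872 CPM in all 12 cis SSP libraries. ASPH, an aspartate and asparagine hydroxylase of the endoplasmic reticulum, was higher in cis without serine and glycine than with them, whereas cis SSP stood low, with 210, 206 and 213 CPM in cis, 423, 411 and 395 CPM in cis -SG, 58, 60.7 and 62.4 CPM in cis SSP, and 61.9, 58.1 and 63.1 CPM in cis SSP -SG. OXR1, an oxidation resistance protein, read 38.7, 34.8 and 38.4 CPM in cis carbo and 12.5, 13.8 and 12.7 CPM in cis SSP carbo (-1.51 ± 0.07, adjusted p = 2.63e-17 by edgeR).

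RRM2B, the p53-inducible subunit of ribonucleotide reductase, was higher with carboplatin in all 3 lines, in contrast to TP53INP1, which was at or near 0 in cis and cis SSP. It read 89.1, 88.6 and 87.8 CPM in wt and 201, 201 and 207 CPM in wt carbo, 126, 116 and 115 CPM in cis and 177, 171 and 178 CPM in cis carbo, and 39.4, 64.1 and 66.1 CPM in cis SSP and 128, 138 and 138 CPM in cis SSP carbo. The first value of cis SSP is that of library 25.

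GGH, which removes glutamates from folates, and PYCR3, an enzyme of proline synthesis, differed between cis and cis SSP by medium. GGH read 69.2, 65.3 and 72.3 CPM in cis carbo and 28.2, 29.2 and 29.5 CPM in cis SSP carbo, but 34.5, 34.1 and 33.6 CPM in cis -SG carbo and 32.9, 30.9 and 34 CPM in cis SSP -SG carbo. PYCR3 read 35.8, 34.9 and 36.2 CPM against 35.8, 33.9 and 33.9 CPM with carboplatin, and 18.5, 15.2 and 19.4 CPM against 33, 33 and 33 CPM with both treatments. Overlapping annotated genes had counts equal to 53.2% of those of PYCR3. The difference between media was not tested.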
